A study of Mus musculus with 16 samples.

Results

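The peaks described here are m6A peaks of wild-type (WT) mouse peritoneal macrophages (PMs). Their raw input level stayed within 2-fold of its unstimulated value when the cells met lipopolysaccharide (LPS). On the scaled counts used for the tests below, their input mostly rose, with a median log2 change of 0.46. Peaks were selected on measured values, namely their input reads in WT PMs. A peak was kept when its mean input level (CPM, its reads scaled to a fixed total of reads on peaks) over the 2 WT LPS libraries was 0.5 to 2 times that over the 2 WT mock libraries. Of 7069 merged peaks, 2261 (32.0%) met this rule, while 880 lay above the window, 3906 below it and 22 had no ratio. The input change of these peaks in WT PMs was therefore set by their choice and is given only as a description.

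PMs were lavaged from WT and Adap-/- mice 3 days after an injection of 3% thioglycolate, cultured as primary cells, and either mock-treated or stimulated with LPS at 1 μg/ml for 6 h. Adap-/- mice lack ADAP, an adaptor protein encoded by *Fyb1*. Per the study's methods, the mice were sex-matched littermates 6 to 8 weeks old on a C57BL/6 background. The labels do not say whether cells of several mice were pooled. There were thus 4 groups of 2 replicates. From every replicate came an input library of fragmented RNA and a library of fragments pulled down with an m6A antibody (IP), which makes 16 libraries. Nothing says that replicates came from separate mice, so p-values measure the spread between these samples, which may be technical.

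N6-methyladenosine, m6A, is a methyl mark placed on mRNA by a writer complex built around METTL3 and METTL14, with WTAP and RBM15 among its partners, and it can be removed by FTO and ALKBH5. Reader proteins such as YTHDF1, YTHDF2 and the nuclear YTHDC1 bind the mark and act on splicing, export, translation and decay of the transcript. The mark is typically densest around stop codons and in long internal exons. LPS engages TLR4 on macrophages and sets off NF-kB, MAP kinase and interferon programmes, which change the level of many transcripts, and a change in pull-down can be read as a change in the mark only after the transcript level has been taken into account.

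Enrichment is given throughout as the IP-to-input ratio, the CPM in IP divided by the CPM in the input of the same replicate, both scaled by TMM factors. It is a relative enrichment and not the share of molecules that carry m6A. WT libraries held 6517124 to 13731908 reads on peaks in IP and 2190219 to 4325961 in input, and 23.8% to 30.1% of the input reads and 29.2% to 35.6% of the IP reads lay on the peaks kept. Of the macrophage markers, 8 of 11 had a peak, among them *Adgre1*, *Csf1r* and *Lyz2*, with a summed input level of 14704 and 15931 CPM in the mock and 13844 and 14621 CPM in the LPS libraries. None of the listed markers of resident peritoneal macrophages, monocytes, granulocytes, lymphocytes, mast cells or fibroblasts had a peak, which gives no level for them, since only methylated transcripts have rows. On the *Fyb1* peak on chromosome 15 from 6609828 to 6610128 (GRCm39, CDS), Adap-/- input libraries had at most 1 read and WT input libraries at least 502, while another peak of the gene, spanning introns, kept 93 to 171 reads in Adap-/- input.

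Among the IP libraries, 2 labelled mock stood apart. On 204 peaks whose WT input was at least 16-fold higher after LPS, the summed CPM of the IP library labelled WT mock replicate 1 reached 67.3% of the WT LPS IP level and that of Adap-/- mock replicate 2 reached 64.3% of the Adap-/- LPS IP level. The other mock IP libraries reached 4.02% in WT and 7.37% in Adap-/- PMs, and the mock input libraries 0.934% to 1.55%. On 160 peaks whose WT input was at least 16-fold lower after LPS, the WT LPS IP libraries held 22.9% and 15.5% of the mock IP level, against 6.80% and 7.11% in the LPS input libraries. Values without WT mock replicate 1 are therefore given beside many of the results, but not beside every single peak. Where none is given, the value includes that library and its share in the value is not shown. Values without Adap-/- mock replicate 2 are not given for single peaks, so Adap-/- values of single peaks include that library.

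On the TMM scale, the input level of the 2260 kept peaks that could be tested differed between LPS and mock by log2 values of −0.08 to 1.94, with a median of 0.46. The window lies off zero on this scale because the raw input ratio had a median of 0.459 over all 7069 peaks. Just inside the lower edge were *Endov*, *Aebp1* and *Cd300lf* at raw input ratios of 0.5004, 0.5005 and 0.5006, and just outside it *Glyr1*, *Armc7* and MAML2 at 0.4999, 0.4999 and 0.4999. Just inside the upper edge were *Rassf4*, *Slamf7* and *Ifi204* at 1.999, 1.997 and 1.995, and just outside it *Tlr1*, another *Rassf4* peak and *Mgat4a* at 2.002, 2.008 and 2.013. Peaks of 1 gene can thus fall on both sides of the window. The 10 peaks of *Spry1*, *Pou3f1*, *Cish* and *Cd300lb* all fell outside it.

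The first comparison asked whether the pull-down of these peaks changed with LPS in WT PMs, using the IP libraries alone. The rule had not used these libraries, but IP follows transcript level and the window held the WT input change between −0.08 and 1.94 on the TMM log2 scale, so the excess of rises below is no result about m6A. The IP level rose at 619 peaks and fell at 14 of 2260 (edgeR's quasi-likelihood test, adjusted p below 0.05), beside 16.2% and 16.3% of all 7058 tested peaks. An unadjusted p below 0.05 was reached by 874 of them, beside 43.0% of all tested peaks. With the window set on TMM-scaled CPM instead, 289 peaks rose and 322 fell. The median log2 fold change in IP was 0.45, which lay next to the median of 0.46 in input. Where the IP level rose, its median log2 fold change was 1.14, that of the input 1.09 and that of the ratio 0.07. Across 2032 peaks with at least 10 reads in each WT input library the IP and input changes had r = 0.69, given as a description across peaks, which share the same libraries.

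**Figure D1:**
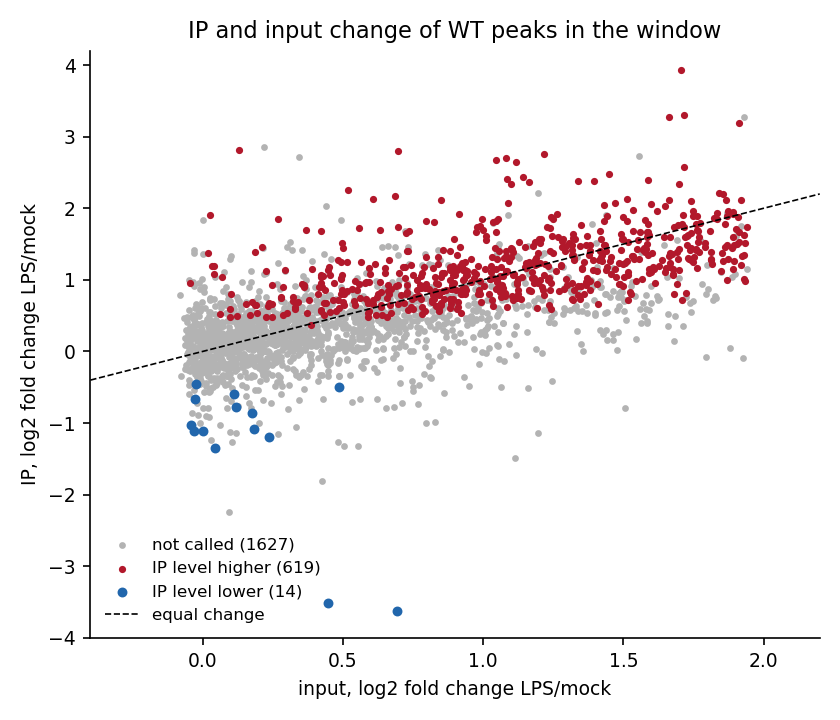
Each point is 1 of 2260 peaks, with the log2 fold change LPS over mock of its WT input on the x axis and of its WT IP on the y axis, both on TMM-scaled counts, and the dashed line marks equal change. The 619 peaks with a higher IP level (red) run along the dashed line, while the 14 with a lower IP level (blue) lie below it at input changes of −0.04 to 0.69.

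At the 14 peaks with a lower IP level the median log2 fold change was 0.11 in input, which the window had bounded, −1.05 in IP and −1.06 in the ratio. The input differed by more than this median at ENSMUSG00000112346 (0.69), *Ambra1* (0.49) and *Tiparp* (0.45), among others. These peaks were picked for a fall in IP, and the window held the input change of kept peaks at −0.08 or above. A lower ratio therefore followed from the choice, and neither it nor a steady input is a separate result about m6A. The peak over the stop codon of *Peak1*, a pseudokinase of the cytoskeleton, had 19.2 and 22.6 CPM in the mock IP libraries and 4.98 and 11.1 CPM in the LPS IP libraries, while its input stayed at 8.14 and 9.57 against 9.35 and 8.89 CPM. The 3'UTR peak of *Dnajc16*, a DnaJ-type co-chaperone, had 13.9 and 28.5 CPM in mock IP and 8.44 and 11.1 CPM in LPS IP, with 18.6 and 17.1 against 17.5 and 18.3 CPM in input. In both genes the LPS IP replicates lay below both mock IP replicates and the input replicates overlapped. The 3'UTR peak of *Ttc14* gave 58.8 and 75.5 CPM in mock IP and 36.2 and 42.2 CPM in LPS IP. The smallest of these 14 falls was in the 3'UTR of *Sel1l*, an adaptor of endoplasmic reticulum degradation, with 111 and 123 CPM in mock IP against 86.2 and 84.0 CPM in LPS IP, a log2 fold change of −0.46 (SE 0.13, adjusted p = 0.0204, edgeR). Also among them were *Zfp54*, *Serac1*/*Synj2*, *Jade2*, *Fam98a*, *Chpf*, *Pex2* and *Ambra1*, along with a *Tiparp* peak, which had fewer than 10 reads in some WT input libraries. ENSMUSG00000112346, also among them, had almost no input, with 0 and 1.66 CPM in mock and 0.81 and 1.87 CPM in LPS input.

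The second comparison set the LPS effect on IP against that on input, and so asked whether m6A enrichment itself changed. No kept peak passed an adjusted p of 0.05 in edgeR, the lowest being 0.215, at a stop codon peak of *Ambra1* and a 3'UTR peak of *Lyn*. At an unadjusted p below 0.05 and a change of more than 2-fold, 10 peaks were higher and 24 lower of 2260, beside 2.69% and 5.13% of all 7058 tested peaks. An unadjusted p below 0.05 was reached by 79 kept peaks and by 10.8% of all tested peaks. Since the window limits the input part of this contrast, nothing is read from the lower share among the kept peaks. DESeq2 gave an adjusted p below 0.05 to 4 peaks, all lower, and none to 936 that its own filter left out.

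The median log2 fold change of the ratio was −0.07, with 9 of 10 peaks between −0.92 and 0.70, and the median over all tested peaks was 0.10. The median moved with the scaling, from −0.18 to 0.51 over the 6 scalings tried among the 2032 peaks with enough reads, so a common shift of all peaks up or down is not given by these data. The precision was such that 812 of these 2032 peaks had a 95% interval of the change that lay wholly within 2-fold in either direction, and 336 to 839 did so over the 6 scalings. The median standard error was 0.38 on the log2 scale. For the remaining peaks a 2-fold change lay within the interval.

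**Figure D2:**
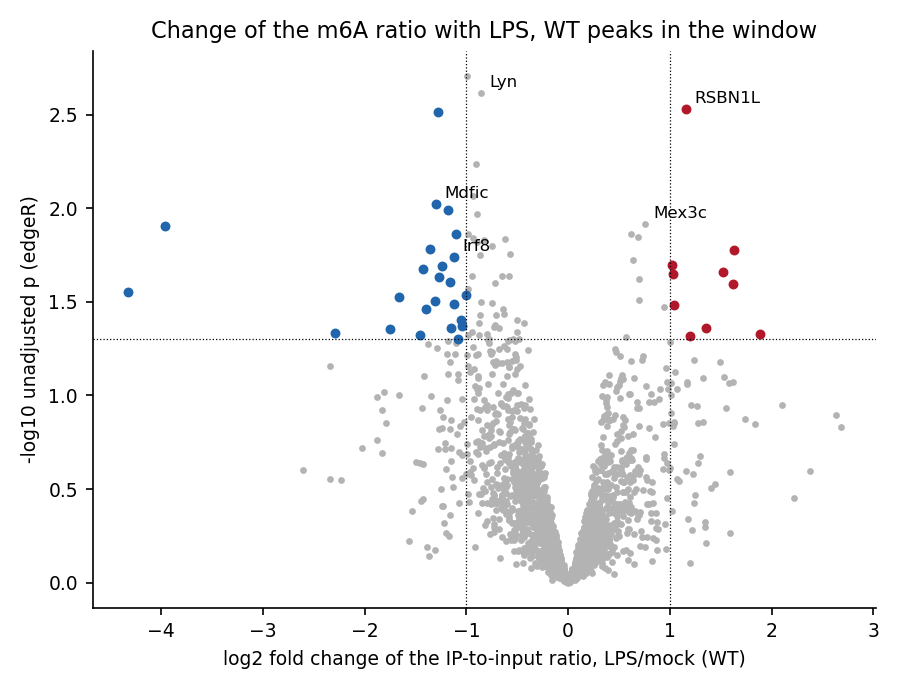
Each point is 1 of 2260 peaks, with the log2 fold change of the IP-to-input ratio in WT PMs (LPS over mock) on the x axis and −log10 of edgeR's unadjusted p on the y axis, where dotted lines mark the unadjusted threshold and a 2-fold change. The 10 higher (red) and 24 lower (blue) peaks past both lines are few among 2260, and none passed the adjusted threshold.

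The mean ratio of the 2032 peaks had a median of 0.945 in mock and 0.908 in LPS libraries, with 5th and 95th percentiles of 0.494 and 2.19 in mock and of 0.438 and 2.11 in LPS libraries. The log2 ratios of the 2 treatments had r = 0.79 across peaks, while the 2 mock replicates had r = 0.51 and the 2 LPS replicates 0.85, all given as descriptions across peaks of the same libraries. The most enriched peak in both treatments lay on *Saa3*, an acute-phase serum amyloid gene, with ratios of 8.72 and 17.7 in mock and 11.3 and 13.5 in LPS replicates. *Jag1*, a Notch ligand, had 3.25 and 4.45 in mock and 3.21 and 4.11 in LPS replicates over its stop codon, and *Chd2*, a chromatin remodeller, 3.08 and 5.81 against 3.65 and 5.45 in its 3'UTR. In each of these 3 genes, chosen after their values were seen for their high ratios, the replicates of the treatments overlapped.

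Peaks with the largest changes were named by a rule that required at least 10 reads in each WT input library, an unadjusted p below 0.05, replicate ratios that do not overlap and the same direction in IP. It left 18 higher and 29 lower peaks, of which the 12 with the largest fold change in each direction are named. None of these 24 passed the adjusted threshold in edgeR, and their adjusted p values lay between 0.230 and 0.462. Without WT mock replicate 1, which assumes that the lone mock sample varies like the other groups, 8 of the 24 kept an unadjusted p below 0.05 and all 24 kept their direction.

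Of the 12 higher peaks, 8 lay in the CDS. The CDS peak of RSBN1L (ENSMUSG00000039968, chromosome 5, 21124749 to 21124974) had ratios of 0.919 and 0.949 in mock and 1.99 and 2.19 in LPS replicates. Its log2 fold change was 1.15 (SE 0.31, adjusted p = 0.230, edgeR) and 1.16 without WT mock replicate 1. In Adap-/- PMs, which the rule had not used and which share no control with WT, the same peak had 1.23 and 1.86 in mock and 3.59 and 3.03 in LPS replicates. That gave a log2 fold change of 1.11 (SE 0.30, unadjusted p = 0.00302, edgeR), and RSBN1L was the 1 peak higher past the unadjusted thresholds in both genotypes.

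*Kdm6b* encodes the H3K27 demethylase JMJD3, itself a gene that inflammatory stimuli induce. Its CDS peak (chromosome 11, 69295621 to 69295946) had ratios of 1.16 and 1.53 in mock and 2.45 and 3.27 in LPS replicates, a log2 fold change of 1.03 (SE 0.39, adjusted p = 0.357, edgeR). Adap-/- PMs gave ratios of 1.92 and 1.71 in mock and of 2.68 and 3.39 in LPS replicates, which did not overlap either, with a log2 fold change of 0.74 (SE 0.37). *Kmt2d*, an H3K4 methyltransferase, had 0.254 and 1.08 in mock and 1.77 and 1.55 in LPS replicates in its CDS. Its log2 fold change of 1.36 was 0.64 without WT mock replicate 1 and 2.68 without WT mock replicate 2, so the size rests on 1 library. *Mllt3*, a histone acylation reader of the super elongation complex, had 0.506 and 0.521 in mock and 1.42 and 1.64 in LPS replicates of WT. Its Adap-/- ratios were 1.14 and 3.47 in mock and 1.07 and 0.969 in LPS replicates. The 3.47 came from Adap-/- mock replicate 2, whose IP library stood apart, on 11 input reads.

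*Crkl*, an SH2 and SH3 adaptor protein, had ratios of 0.466 and 0.393 in mock and 0.778 and 0.984 in LPS replicates at its start codon, on a peak whose ends, 17270425 and 17286779 on chromosome 16, span an intron. *Mex3c*, an RNA-binding ubiquitin ligase, had 0.609 and 0.596 in mock and 1.10 and 0.936 in LPS replicates in its CDS, with the smallest standard error of the 12 higher peaks (log2 fold change 0.76, SE 0.25, adjusted p = 0.307, edgeR). The *Mex3c* replicates of Adap-/- PMs overlapped, at 0.709 and 0.929 in mock and 0.806 and 0.655 in LPS. The remaining higher peaks lay on *Zcchc2*, TMEM271 (ENSMUSG00000105867), *Zbed6*/*Zc3h11a*, *Msantd2*, TLK2 (ENSMUSG00000020694, also ENSMUSG00000099681) and *Wdr43*, with log2 fold changes of 0.94 to 1.89. Of those, TMEM271 (1.66) and TLK2 (1.16) kept an unadjusted p below 0.05 without WT mock replicate 1, as did RSBN1L, *Kdm6b*, *Crkl* and *Mex3c*.

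**Figure D3:**
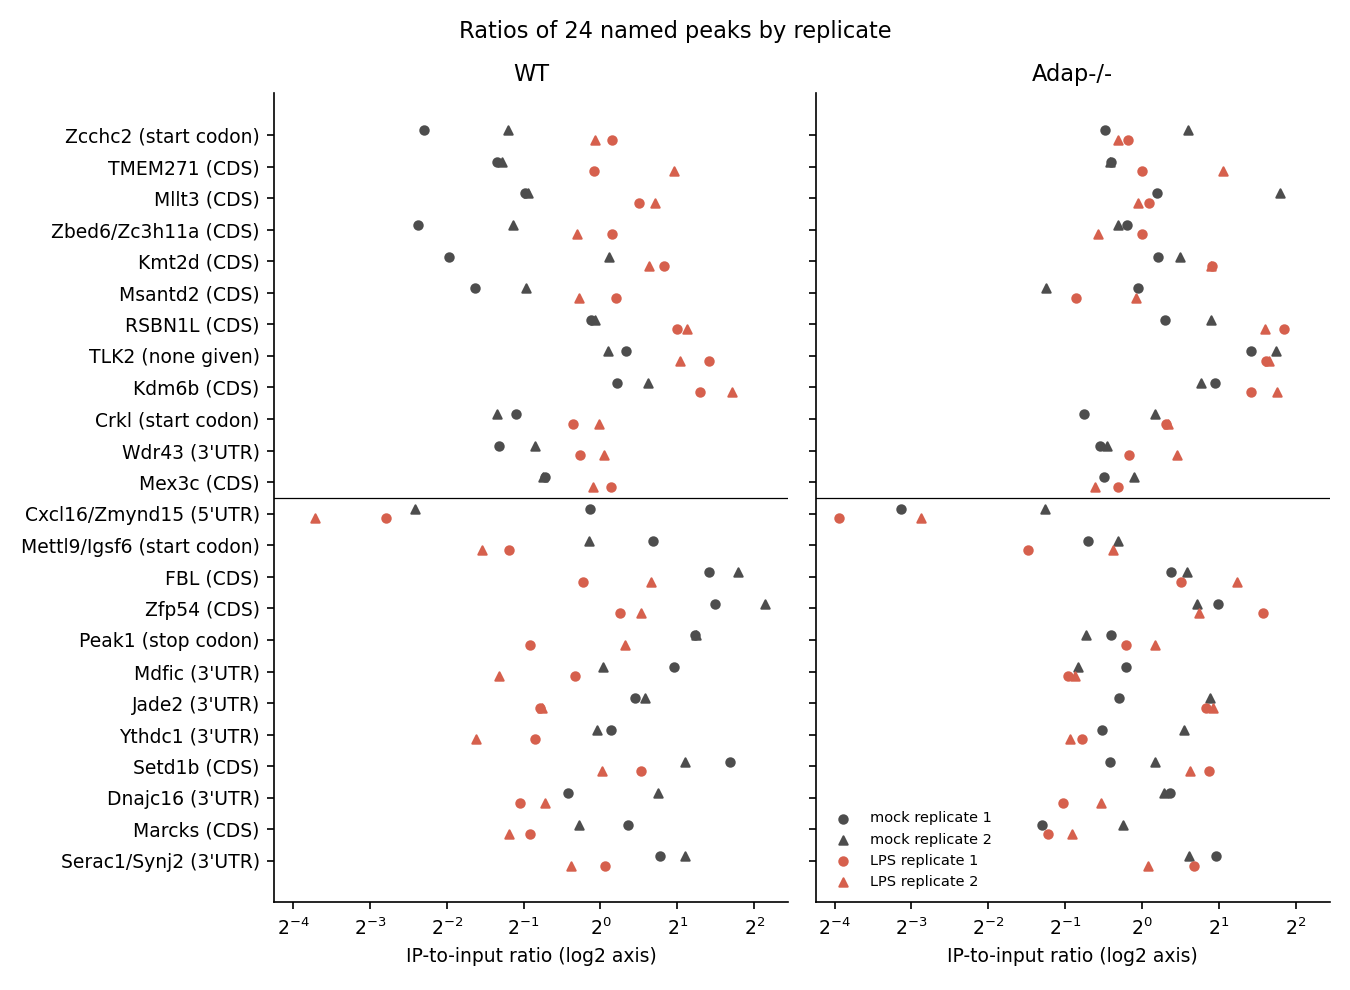
The IP-to-input ratio (x axis, log2) of each replicate is plotted for the 24 named peaks in WT (left) and Adap-/- PMs (right), with mock in grey, LPS in red, replicate 1 as circles and replicate 2 as triangles; the line parts the 12 higher from the 12 lower peaks. In WT the colours do not overlap in any row, which the naming rule fixed, while in Adap-/- PMs they overlap in many, as for *Mex3c*, and change order for *Setd1b*.

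Among the lower peaks 5 of 12 lay in 3'UTRs. *Ythdc1*, the nuclear m6A reader, had ratios of 1.10 and 0.970 in mock and 0.552 and 0.326 in LPS replicates on a 3'UTR peak (chromosome 5, 86977305 to 86978429), a log2 fold change of −1.24 (SE 0.46, adjusted p = 0.346, edgeR). Adap-/- values were 0.699 and 1.47 in mock and 0.584 and 0.520 in LPS replicates, and the log2 fold change was −0.89 (SE 0.45). The 1.47 came from Adap-/- mock replicate 2, whose IP library stood apart. Its other 3'UTR peak and its CDS peak had log2 fold changes of −0.45 (SE 0.67) and 0.02 (SE 0.55) in WT.

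*Setd1b*, another H3K4 methyltransferase, had 3.20 and 2.15 in mock and 1.45 and 1.02 in LPS replicates of WT, but 0.749 and 1.12 in mock and 1.84 and 1.55 in LPS replicates of Adap-/- PMs. The replicates did not overlap in either genotype and the order of treatments was opposite. Without WT mock replicate 1 the WT log2 fold change went from −1.17 to −0.83. The raw input ratio of this peak in Adap-/- PMs was 0.474, below the window that was set on WT. The difference between the 2 LPS effects was −2.07 on the log2 scale, with an unadjusted p of 0.00634 and an adjusted p of 1.00 in edgeR. *Jade2*, a PHD finger protein, had 1.36 and 1.49 in mock and 0.578 and 0.589 in LPS replicates of WT. Its Adap-/- ratios were 0.816 and 1.85 in mock and 1.78 and 1.90 in LPS replicates, and the 1.85 again came from Adap-/- mock replicate 2.

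The 3'UTR peak of *Dnajc16* had ratios of 0.747 and 1.67 in mock and 0.483 and 0.609 in LPS replicates of WT (log2 fold change −1.12, SE 0.46), and 1.29 and 1.22 in mock and 0.489 and 0.691 in LPS replicates of Adap-/- PMs (−1.12, SE 0.46, unadjusted p = 0.0317 in edgeR). Without WT mock replicate 1 the WT value was −1.58 (unadjusted p = 0.00526, edgeR), but without WT mock replicate 2, whose ratio was the higher, it was −0.45 (unadjusted p = 0.338). With the replicate block by RNA sample the unadjusted p was 0.0663, and with the 8 WT libraries alone 0.0687 (edgeR). *Zfp54*, a zinc finger gene, had 2.81 and 4.41 in mock and 1.19 and 1.44 in LPS replicates in its CDS, and a neighbouring CDS peak, which missed the read minimum, had 2.21 and 6.29 against 1.08 and 1.15. The first *Zfp54* peak in Adap-/- PMs had 1.99 and 1.64 in mock and 2.98 and 1.67 in LPS replicates.

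At some other lower peaks the mock replicates differed among themselves. At the 5'UTR peak of *Cxcl16*, a chemokine, and *Zmynd15*, the ratios were 0.911 and 0.188 in mock and 0.145 and 0.0759 in LPS replicates, and the log2 fold change of −2.29 became −0.72 without WT mock replicate 1. *Marcks*, a protein kinase C substrate, had 1.28 and 0.825 against 0.528 and 0.437, and its −1.10 became −0.75. *Mettl9*/*Igsf6*, FBL (ENSMUSG00000046865, fibrillarin), *Peak1*, *Mdfic* and *Serac1*/*Synj2* gave log2 fold changes of −1.66, −1.46, −1.40, −1.30 and −1.09. Without WT mock replicate 1 these were −1.18, −1.59, −1.37, −0.79 and −1.23. The mock replicates of *Peak1* were close, at 2.36 and 2.36, and its LPS replicates had 0.532 and 1.25.

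Genes with several kept peaks were also looked at. Of 425 genes with more than 1 tested peak (1105 peaks, counting peaks of a single gene only), 6 had at least 2 peaks with an unadjusted p below 0.05, and in none of them did those peaks point in opposite directions. This count was not made over all tested peaks, so it is not read as few or many. Counted as single peaks and not as genes, an unadjusted p below 0.05 was reached by 3.5% of the kept and 10.8% of all tested peaks (edgeR). Peaks of a gene come from the same libraries, and neighbouring ones can share fragments, so a common direction is no separate support. Over the stop codon of *Ambra1*, a regulator of autophagy, 2 neighbouring peaks had ratios of 1.45 and 1.05 in mock against 0.561 and 0.692 in LPS replicates, and of 1.49 and 2.24 against 0.803 and 1.13. Their log2 fold changes were −0.99 (SE 0.25, adjusted p = 0.215, edgeR) and −0.94 (SE 0.30). The CDS peak and the 3'UTR peak of *Ambra1* gave 0.51 (SE 0.56) and −0.12 (SE 0.46), and in Adap-/- PMs the first stop codon peak gave 0.40. The other such genes were *Ppp1r15a*, *Slamf7*, *Stx11* and *Zfp54*, whose peaks were lower, and *Zcchc2*, whose peaks were higher.

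Peaks were then grouped by their position in the transcript. Of the 2261 peaks, 758 lay in the CDS, 752 over a stop codon, 318 in the 3'UTR, 312 over a start codon and 52 in the 5'UTR, which left 37 with no region given and 32 with several. The median log2 fold change of the ratio in WT PMs was 0.06 in the CDS and −0.23 in the 3'UTR, with −0.10 at stop codons, −0.20 at start codons and −0.05 in the 5'UTR. For Adap-/- PMs it was 0.24 in the CDS and −0.12 in the 3'UTR. The sign of each WT median depends on the scaling, while the WT distance between CDS and 3'UTR was 0.28 to 0.29 under the scalings tried. Other scalings were not run for the Adap-/- medians. Over all tested peaks the WT medians were 0.23 in the CDS and 0.0012 in the 3'UTR. Tested peaks that were not kept gave 0.35 and 0.11, so this order of regions is not particular to the kept peaks. Past the unadjusted thresholds, 7 of the 10 higher peaks and 6 of the 24 lower peaks lay in the CDS, and none of the 10 and 8 of the 24 in the 3'UTR.

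Sample by sample, the median log2 ratio of CDS peaks minus that of 3'UTR peaks was −0.03 and 0.09 in WT mock and 0.34 and 0.35 in WT LPS replicates, over 687 CDS and 294 3'UTR peaks with at least 10 reads in every input library. It was −0.0046 and −0.02 in Adap-/- mock and 0.39 and 0.38 in Adap-/- LPS replicates. The mean thus went from 0.03 ± 0.08 to 0.35 ± 0.0040 in WT (SD, n = 2) and from −0.011 ± 0.0090 to 0.38 ± 0.0044 in Adap-/- PMs (SD, n = 2). All 4 LPS samples lay above all 4 mock samples, and the 2 mock replicates whose IP libraries stood apart gave −0.03 in WT and −0.02 in Adap-/- PMs. With 2 samples against 2, an exact two-sided permutation test cannot go below p = 0.333, which is the value it gave in WT (n = 2 per group), and the contrast of these regions was chosen after their medians were seen.

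Taken separately, input and IP gave the following distances. The median input level of CDS peaks minus that of 3'UTR peaks went from −0.68 ± 0.08 in mock to −0.88 ± 0.04 in LPS samples on the log2 scale (SD, n = 2), while the same difference in IP was −0.67 ± 0.08 and −0.63 ± 0.06 (SD, n = 2). The Adap-/- input went from −0.51 ± 0.10 to −0.82 ± 0.04 and the Adap-/- IP from −0.63 ± 0.01 to −0.48 ± 0.03 (SD, n = 2). The WT input is the measure that chose the peaks. With the peaks split by input level into low, middle and high, the WT distance was larger in LPS than in mock samples by 0.27, 0.34 and 0.26, and with the peaks split by length, by 0.31 in the shorter and 0.23 in the longer ones.

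CDS and 3'UTR peaks of 1 gene were also compared with each other. Among 40 genes with both kinds of peak, the median within-gene difference was −0.19 and −0.25 in WT mock and 0.14 and 0.14 in WT LPS samples, and the difference was larger with LPS in 26 of the 40 genes. The Adap-/- values were −0.46 and −0.25 in mock and 0.36 and 0.49 in LPS samples, and the difference was larger with LPS in 33 of the 40. CDS minus stop codon went from −0.17 ± 0.02 to 0.06 ± 0.01 in WT and from −0.20 ± 0.0032 to 0.03 ± 0.01 in Adap-/- PMs over all such peaks (SD, n = 2). Within 140 genes that have both, it went from −0.31 ± 0.07 to −0.22 ± 0.04 in WT, a gap close to the spread between replicates, and from −0.34 ± 0.24 to −0.09 ± 0.05 in Adap-/- PMs (SD, n = 2).

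**Figure D4:**
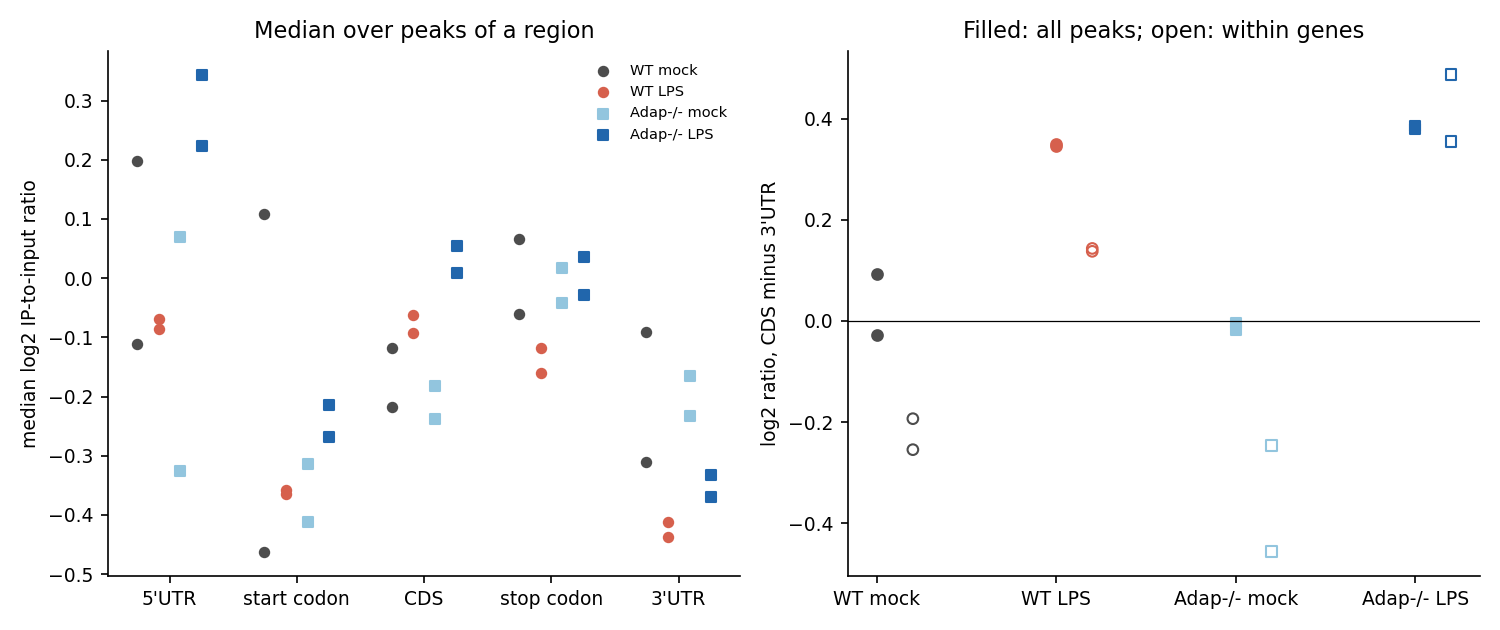
Left, the median log2 IP-to-input ratio over the peaks of each region is plotted for each of the 8 RNA samples, with WT as circles and Adap-/- as squares. Right, the same median in the CDS minus that in the 3'UTR is plotted per sample, over all peaks (filled) and as the median within 40 genes that have both (open); the 4 LPS samples, at 0.34 to 0.39 over all peaks, lie above the 4 mock samples, at −0.03 to 0.09.

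Ratio changes are also given by how far the input had moved, as a description only, since the bins use the input counts that chose the peaks and that form the denominator of the ratio. In WT the median log2 fold change of the ratio was 0.02 for 989 peaks with a raw input ratio of 0.5 to 0.67, −0.10 for 667 peaks from 0.67 to 1, −0.24 for 415 peaks from 1 to 1.5 and −0.36 for 189 peaks from 1.5 to 2. Without WT mock replicate 1 the same medians were 0.07, 0.00, −0.01 and −0.03, and without WT mock replicate 2 they were 0.01, −0.14, −0.38 and −0.64. The same peaks gave Adap-/- medians of 0.15, 0.03, −0.07 and −0.07. Outside the window the medians in WT were −1.496 above it and 0.30 below it. Shared input counts can by themselves make a fall across the bins, and whether or how far they did so here was not tested.

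**Figure D5:**
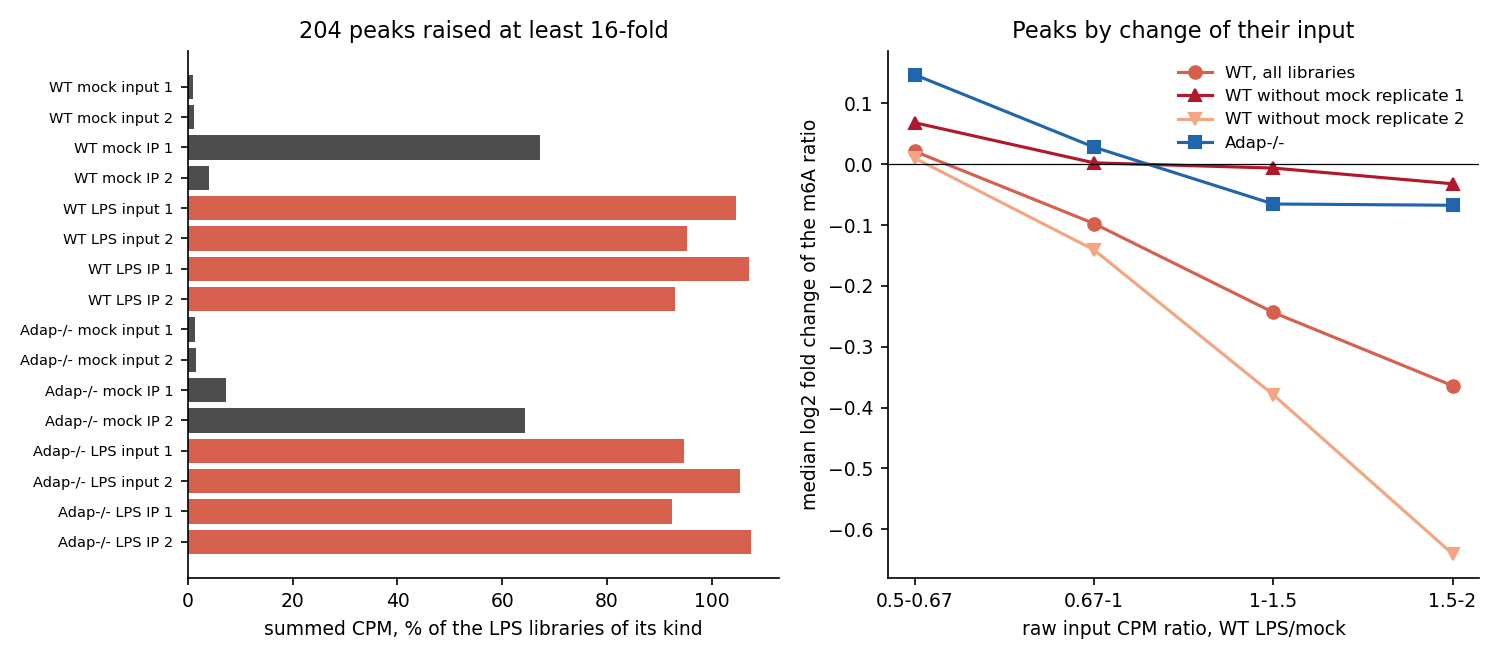
Left, the summed CPM of 204 peaks raised at least 16-fold in WT input is shown for each of 16 libraries as a percent of the mean of the LPS libraries of the same genotype and kind, where WT mock IP 1 (67.3%) and Adap-/- mock IP 2 (64.3%) exceed the other mock libraries. Right, the median log2 fold change of the ratio (y axis) is shown for 4 ranges of the raw input ratio (x axis); the WT line falls to −0.36 with all libraries and stays within 0.07 of zero without mock replicate 1.

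Genes of the m6A machinery had 20 kept peaks on 11 genes, of which 10 had a ratio above and 10 below zero change, with a median log2 fold change of −0.05 beside −0.07 over all kept peaks. None passed the adjusted threshold, and *Ythdc1* (above) alone had an unadjusted p below 0.05. *Wtap*, a subunit of the writer complex, had 2.35 and 1.29 in mock and 3.41 and 5.46 in LPS replicates at its start codon (log2 fold change 1.26, SE 0.74, unadjusted p = 0.114, edgeR). That peak had 11 to 19 reads in the WT input libraries. Its Adap-/- change was −0.60 (SE 0.73), with 1.44 and 7.69 in mock and 2.52 and 2.03 in LPS replicates. The 7.69 came from Adap-/- mock replicate 2, whose IP library stood apart. At the other 3 *Wtap* peaks the WT change was −0.25 to −0.38. *Ythdf1*, a cytoplasmic reader that promotes translation, had 0.764 and 0.627 against 0.546 and 0.407 at 1 of 3 CDS peaks (−0.55, SE 0.27), while the IP level of its other 2 peaks rose by 0.86 and 0.91 on the log2 scale (adjusted p = 0.00140 and 0.000927, edgeR) with their input at 0.77 and 1.05. The Adap-/- change at the first *Ythdf1* peak was 0.72 (SE 0.27), and the difference between genotypes was −1.27 (unadjusted p = 0.00678, edgeR). That difference did not pass the adjusted threshold. The WT change at this peak was −0.38 without WT mock replicate 1. *Pcif1*, which makes the cap-adjacent mark m6Am, gave −0.66 (SE 0.38) over its stop codon. *Alkbh5*, the demethylase, gave 0.19 (SE 0.25) at its start codon.

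Genes of TLR4 and NF-kB signaling had 25 kept peaks on 16 genes. Their ratios had a median log2 fold change of −0.22, with 8 above and 17 below zero, but 0.14 without WT mock replicate 1, and none had an unadjusted p below 0.05. Their IP level rose at 12 of the 25 and fell at none, beside 27.4% and 0.619% of all kept peaks and 16.2% and 16.3% of all tested peaks. *Nfkb1*, the p105 subunit of NF-kB, had ratios of 1.23 and 0.708 in mock and 0.585 and 0.598 in LPS replicates over its stop codon. There the IP level rose by 1.21 on the log2 scale (adjusted p = 0.00353, edgeR) and the input differed by 1.92. *Tnip1*, an A20-binding inhibitor of NF-kB, had 1.15 and 0.805 against 0.657 and 0.651, *Irf5* 0.683 and 0.413 against 0.393 and 0.353, and *Rel* 1.25 and 0.691 against 0.693 and 0.458, with unadjusted p values of 0.0977, 0.0938 and 0.191 in edgeR. The *Rel* replicates overlapped. With all libraries the log2 fold changes of *Nfkb1*, *Tnip1*, *Irf5* and *Rel* were −0.71, −0.59, −0.54 and −0.81. Without WT mock replicate 1 they were −0.24, −0.28, −0.12 and −0.27.

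MAP kinase genes had 7 kept peaks on 4 genes, with a median of −0.24 and none past an unadjusted p of 0.05. *Map2k4*, a kinase upstream of JNK and p38, had 1.30 and 1.03 against 0.942 and 0.626 over its stop codon and 0.871 and 0.821 against 0.724 and 0.732 in its 3'UTR. *Map3k8*, the kinase TPL2, had 1.11 and 1.01 against 0.739 and 0.762 at its start codon. DUSP16 (ENSMUSG00000030203), a MAP kinase phosphatase, had 1.15 and 0.655 against 0.491 and 0.719, which overlapped. The log2 fold changes were −0.60 and −0.22 at *Map2k4*, −0.50 at *Map3k8* and −0.59 at DUSP16. Without WT mock replicate 1 they were −0.42, −0.15, −0.41 and −0.13.

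Interferon and STAT genes had 8 kept peaks. *Irf8*, a lineage factor of macrophages, had 1.07 and 0.657 in mock and 0.379 and 0.395 in LPS replicates in its 3'UTR, a log2 fold change of −1.12 (SE 0.41, adjusted p = 0.336, edgeR) and of −0.75 without WT mock replicate 1. *Irf8* in Adap-/- PMs gave −0.75 (SE 0.41). *Ifnar1*, a subunit of the type I interferon receptor, had 0.654 and 0.607 against 0.741 and 0.849 over its stop codon (0.34, SE 0.21). *Irf2* had 1.04 and 0.424 against 0.418 and 0.503, and the *Ifnar2*/*Il10rb* peak 0.996 and 0.554 against 0.528 and 0.576, so the high value in both came from WT mock replicate 1.

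Macrophage transcription factors had 16 kept peaks on 11 genes, with a median of −0.24 that became 0.03 without WT mock replicate 1. *Junb*, an AP-1 subunit, had 1.48 and 0.321 in mock and 0.355 and 0.331 in LPS replicates, and *Cebpb*, on a peak shared with *Tmem189*, 0.837 and 0.272 against 0.294 and 0.260. In both genes WT mock replicate 1 alone was high and the other 3 samples lay close together. *Atf3*, a stress-induced repressor, had 0.729 and 0.490 against 0.375 and 0.379 in its 3'UTR, the 1 peak of this list with an unadjusted p below 0.05 (0.0436 in edgeR, log2 fold change −0.68, but 0.311 and −0.36 without WT mock replicate 1), and 0.690 and 0.556 against 0.496 and 0.444 over its stop codon.

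By the KEGG pathways named in the table, the kept peaks of each group had medians near or below that of all kept peaks. NF-kappa B signaling (34 peaks) gave −0.17, TNF signaling (34) −0.26, Toll-like receptor signaling (36) −0.11, MAPK signaling (52) −0.14, lysosome (11) −0.14, endocytosis (51) −0.15, ubiquitin mediated proteolysis (30) −0.16, spliceosome (23) 0.01 and ribosome (5) −0.32. Without WT mock replicate 1 these medians lay between −0.06 and 0.11. At most 1 peak of each pathway was past an unadjusted p of 0.05 in either direction. Of these, *Lyn*, a Src-family kinase, had 1.22 and 0.958 in mock and 0.633 and 0.564 in LPS replicates in its 3'UTR (log2 fold change −0.85, SE 0.22, adjusted p = 0.215, edgeR). That peak in Adap-/- PMs had 1.01 and 0.906 in mock and 0.686 and 0.578 in LPS replicates (−0.60, SE 0.22, unadjusted p = 0.0193, edgeR), so the replicates did not overlap in either genotype. *Ctsc*, the lysosomal cathepsin C, had 1.08 and 0.599 against 0.459 and 0.416, with −0.89 in WT and −0.69 in Adap-/- PMs. The WT value was −0.43 (unadjusted p = 0.161, edgeR) without WT mock replicate 1 and −1.32 without WT mock replicate 2.

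The same 2260 peaks were then followed in Adap-/- PMs, whose input the window had not used. There none passed the adjusted threshold in edgeR either, 41 were higher and 32 lower past the unadjusted thresholds, beside 2.44% and 4.56% of all tested peaks, and 174 (7.70%) had an unadjusted p below 0.05, beside 11.5% of all tested peaks. Of the 34 WT peaks past the unadjusted thresholds, 22 had the same sign in Adap-/- PMs (7 of the 10 higher and 15 of the 24 lower), where 57.9% of all kept peaks had. Past the thresholds in both genotypes were RSBN1L, higher, and *Dnajc16* and ENSMUSG00000112346, lower. The WT call of *Dnajc16* was lost with the block or with the WT libraries alone. ENSMUSG00000112346 missed the read minimum and had almost no input. Its WT input level was 0 and 1.66 CPM in mock and 0.81 and 1.87 CPM in LPS replicates. Its unadjusted p in Adap-/- PMs was 0.0493 (edgeR). *Tmbim6* (−1.28 and −0.80) had an unadjusted p below 0.05 in both genotypes. The changes in the 2 genotypes had r = 0.22 over 2032 peaks, given as a description.

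A test of the difference between the 2 LPS effects gave no adjusted p below 0.05 among the kept peaks in edgeR, the lowest being 0.816. At the unadjusted thresholds the WT effect was higher at 14 and lower at 41 peaks, beside 1.74% and 1.02% of all tested peaks, and 75 kept peaks had an unadjusted p below 0.05, beside 3.23% of all tested peaks. Of the 34 WT peaks, 8 had an unadjusted p below 0.05 for the difference, among them *Mllt3* (2.66), *Setd1b* (−2.07), *Peak1* (−1.95), *Jade2* (−1.87) and *Zfp54* (−1.80). These differences include Adap-/- mock replicate 2, which gave the high *Mllt3* ratio of 3.47. In Adap-/- PMs the raw input ratio of LPS to mock was 2.13 at *Mllt3*, 0.474 at *Setd1b*, 0.295 at *Peak1* and 0.415 at *Zfp54*. Those values lie outside 0.5 to 2, while *Jade2*, at 0.570, lay inside. So the comparison between genotypes is mostly not made at a similar input change.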

How the data were processed

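Peritoneal macrophages of WT and Adap-/- mice, mock-treated or given LPS, were profiled by MeRIP-seq in 16 libraries. The authors deposited a table of raw read counts on merged peaks with gene, region and pathway names. The submitters' processing notes name Bowtie2 2.2.8, MACS2 2.1.2, DiffBind 2.8 and the build GRCm39, and the paper's methods the online platform Omicsmart. Whether counting used strand is not given in the sources used here. The table repeats a peak for each gene it overlaps, so 1 row per peak was kept, and a peak over a start or stop codon was assigned to that codon. Symbols are as the table gives them, some in human style.

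The members, gene lists and tests were chosen with earlier results of these data known. Counts were fitted in edgeR 4.0.16 (R 4.3.3) with TMM, filterByExpr (10 reads, 15 in total) and the quasi-likelihood test over all 16 libraries, with Benjamini-Hochberg adjustment over 7058 peaks, and the model was tested on simulated data. The WT contrast was LPS IP minus input less mock IP minus input, which shares its input counts with the window. Intervals are 95% t intervals from the fit. Median ratios by region used a pseudocount of 0.5 CPM. DESeq2 1.42.0, other scalings, filters, windows and each replicate left out were tried. Peaks were named as stated in the results, together with the 4 of lowest p in each list, of which those described are a part, and the 3 on each side of each window edge. *Saa3*, *Chd2*, *Jag1*, the genes with several peaks and the peaks with a lower IP level lie outside that rule and were chosen after their values were seen.

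IP and input of 1 number come from the same RNA by the protocol. Their replicate differences had r of 0.11 in WT LPS, −0.11 in WT mock, 0.09 in Adap-/- LPS and 0.04 in Adap-/- mock libraries over all peaks. Interval and test cover counting and replicate spread only. No genome of the files' build was used, so no sequence is shown. A further peak with a lower IP level is counted but not reported here by name.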

Additional observations from a re-analysis of the deposited data

How the results depend on the processing

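The distance between CDS and 3'UTR medians (0.29 in the fit) was 0.28 to 0.29 under the other scalings, 0.22 to 0.35 with 1 WT replicate left out and 0.25 with the window 0.67 to 1.5, a result chosen after seeing the data. Counts at unadjusted thresholds did not hold their size. Beside 10 higher and 24 lower peaks in WT, DESeq2 gave 5 and 39, the 8 WT libraries alone 6 higher, RLE 4 and 43, upper quartile 16 and 9, library totals 109 and 2, TMM within IP and input 4 and 47, TMM on the kept peaks 13 lower, a fold threshold of 0.5 on the log2 scale 18 and 58, the window 0.67 to 1.5 4 and 13, a window from TMM-scaled CPM 52 higher, the window applied in Adap-/- as well 14 lower, and no window 190 and 362. With 1 WT replicate left out the counts ranged from 4 to 57 higher and from 11 to 122 lower. Without WT mock replicate 1 they were 22 and 13, of which 7 of 35 were among the 34, and without WT mock replicate 2, 57 and 122. Adjusted calls were 0 in all settings except 4 with DESeq2 (*Lyn*, *Tmbim6*, *Ambra1*, *Slamf7*) and 4 without WT mock replicate 2 (*Dbnl*, *Mtdh*, *Kmt2d*, *Tmbim6*), so left-out WT replicates gave 0 to 4.

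The replicate block by RNA sample gave 14 higher and 17 lower peaks (24 of 31 among the 34) and 0 adjusted. Of the 24 peaks named by size, 20 kept an unadjusted p below 0.05 with it, and *Msantd2* (0.0758), *Cxcl16* (0.0677), *Dnajc16* (0.0663) and *Serac1* (0.0823) did not (edgeR). With the WT mock IP numbers crossed the counts were 15 and 18. The replicate number across groups, which is only a number, gave 11 and 20 as a block.

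The IP level was higher at 619 and lower at 14 peaks, against 338 and 77 with library totals, 303 and 184 with TMM on the kept peaks, 289 and 322 with the TMM-scaled window, 1145 and 1149 with no window, 3 lower with the window 0.67 to 1.5 and 4 lower with the window in Adap-/- as well, and left-out WT replicates gave 293 to 644 higher and 3 to 14 lower. The number of kept peaks was 1082 with the narrower and 4210 with the TMM-scaled window.

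In Adap-/- PMs, 41 higher and 32 lower became 22 and 57 (DESeq2, with 6 adjusted), 25 and 59 (RLE), 223 and 4 (library totals) and 25 and 58 (TMM within), and 37 to 102 and 36 to 65 with 1 replicate left out. The difference between genotypes, 14 higher and 41 lower, became 24 lower with DESeq2 and, in alternatives added after seeing the data, 22 and 22 (upper quartile), 20 lower (library totals) and 27 and 24 (TMM on the kept peaks), and 9 to 54 and 19 to 101 with 1 replicate left out.

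Medians by region moved by more than the replicate spread under library totals (5'UTR 0.49, start codon 0.39, CDS 0.63, stop codon 0.47, 3'UTR 0.35), RLE (CDS −0.034), upper quartile (CDS 0.23, stop codon 0.075, 3'UTR −0.053), TMM within (CDS −0.045, stop codon −0.21) and TMM on the kept peaks (CDS 0.17, stop codon 0.019). With 1 WT replicate left out the 5'UTR ranged from −0.29 to 0.25. Of 688 values of 43 named peaks, 12 changed sign, none of them past an unadjusted p of 0.05, with library totals *Ythdf1* 0.034, *Irf5* 0.065, *Tnip1* 0.018, *Map3k8* 0.086, DUSP16 0.014, *Map2k4* 0.36, *Ifnar2* 0.16 and *Atf3* 0.19, and without WT mock replicate 1 *Irf2* 0.14 (−1.18 without WT mock replicate 2), *Ifnar2* 0.028 (−0.85), *Junb* 0.12 (−2.12) and *Cebpb* 0.057 (−1.60). The cause of these moves was not tested. With 2 replicates a group and 10 or more reads in input, most changes under 2-fold cannot be called. Larger changes were not called either: none of the 34 WT peaks past 2-fold and an unadjusted p of 0.05 passed the adjusted threshold in the main edgeR fit.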
